A study of Homo sapiens with 21 samples.

Results

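The 35 genes described here belong to the integrated stress response and the unfolded protein response. The genes were chosen by name, as targets of the transcription factor ATF4, enzymes of serine synthesis and genes of stress in the endoplasmic reticulum (ER). Each of the 35 names matched 1 row of both count tables, out of 60668 gene rows in each. All 35 passed the filter on low counts, and the lowest count of any of them in any library was 140.

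In the integrated stress response, kinases that sense unfolded protein in the ER (EIF2AK3, also called PERK), a lack of amino acids (EIF2AK4, also called GCN2) or other stresses phosphorylate the translation factor eIF2. General translation then slows while the ATF4 protein is made in larger amounts, and ATF4 drives genes of amino acid synthesis and transport, of redox defence and of growth restraint. The unfolded protein response adds the ER sensors IRE1 and ATF6, the transcription factor XBP1 and chaperones such as HSPA5. Much of this control acts on phosphorylation, on translation or on the splicing of XBP1, and the gene counts used here measure none of these steps.

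The cells were HCC1806, an established human line of triple-negative breast cancer, a type that lacks the oestrogen and progesterone receptors and excess ERBB2. They were grown flat on plastic, and polyA-selected RNA was sequenced. There were 21 libraries in 7 groups of 3. In the first table the groups were 3XCTL (genotype given as control), 3XSR (genotype 3xSR, which the series title describes as joint overexpression of SRSF2, SRSF3 and SRSF7) and MYC-OE (overexpression of MYC). In the second they were 1xCtrl (a control with a single plasmid) and cells overexpressing SRSF2, SRSF3 or SRSF7 alone, called 1xSRSF2, 1xSRSF3 and 1xSRSF7. SRSF2, SRSF3 and SRSF7 are SR proteins, which bind pre-mRNA and steer its splicing, while MYC drives transcription of growth genes. The labels give neither the promoters that drive the transgenes nor whether a line is a pool or a clone, and they do not say whether replicates came from separate cultures, so p-values measure the spread between these libraries only. Each line was compared with the control of its own table, and MYC-OE with 3XCTL, which may not carry the same vector.

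Total counts ran from 143269192 to 303323552 a library. Levels are given as CPM, counts per megacount of the scaled library, and 3 counts, the floor used here, corresponded to 0.00947 to 0.0210 CPM. The tables were scaled separately, so levels are compared within a table only. SRSF3 was higher in the libraries labelled 3XSR and in 1xSRSF3 (0.31 and 0.49 on the log2 scale), as was SRSF7 in the libraries labelled 3XSR and in 1xSRSF7 (0.44 and 0.26) and MYC in MYC-OE (0.90). SRSF2 was not higher where the labels name it, with log2 fold changes of -0.06 (edgeR adjusted p = 0.389) in the libraries labelled 3XSR and -0.16 (edgeR adjusted p = 0.098) in those labelled 1xSRSF2, so the directions given for these groups are those of libraries with that label. Left out one at a time, each library of 1xSRSF2 and 1xCtrl replicates 1 and 2 turned the lower value of SRSF2 into a call (edgeR adjusted p from 0.00951 to 0.0479). MYC, which no label names there, was also higher in the libraries labelled 3XSR (0.75), in 1xSRSF3 (0.26) and in 1xSRSF7 (0.27). The call in 1xSRSF3 was lost without any of its 6 libraries other than 1xCtrl replicate 2, and that in 1xSRSF7 without 1xCtrl replicate 1 or 3 or 1xSRSF7 replicate 1 or 3 (edgeR adjusted p from 0.0585 to 0.136). Each of 6 epithelial markers was present in all libraries, at a summed level of 3325 to 4801 CPM, with KRT5 the most abundant. RNA of the receptors was counted too, with ERBB2 at 99.6 to 184 CPM, ESR1 at 6.49 to 11.5 CPM and PGR at 0 to 1.46 CPM. Of 10 markers of leukocytes, endothelium, fibroblasts and smooth muscle, 6 stayed under 1 CPM in all libraries. The summed level of the 10 was low in 3XCTL (14.9 to 24.7 CPM) and highest in MYC-OE (43.5 to 47.8 CPM) and 1xSRSF3 (39.5 to 43.0 CPM), with CD68 at 5.92 to 36.1 CPM and COL1A1 at 5.46 to 15.7 CPM over all libraries, and its part in the results was not tested. Replicate 2 of 1xCtrl stood apart from the other 2 libraries of its group: 18.4% of genes differed from them by over 0.5 on the log2 scale, and its mitochondrial share of counts was 10.3% against 12.8% and 12.5%. In GENCODE release 29, parts of the exons of ASNS (1985 of 4455 bases) and PYCR1 (408 of 2886) are shared with another gene of the same strand, and parts of MTHFD2 (1619 of 4870), DDIT4 (847 of 2058), EIF2AK3 (819 of 5434), VLDLR (738 of 9339), ATF5 (626 of 2954), SHMT2 (460 of 4838), PYCR1 (450 of 2886), DDIT3 (413 of 1307) and CEBPB (231 of 1956) with genes of the opposite strand. DDIT3 shares a further 105 bases and ATF5 a further 74 with a gene of the same strand, and JDP2, ALDH1L2 and DNAJB9 share 26, 145 and 183 with genes of the opposite strand. The libraries were made with a stranded kit, but the strand setting of the counting is not given in the sources used here, so reads of such partners may not be told apart.

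Promoter sequence was read for 28 of the 35 genes from RefSeq (build GRCh38.p14), as windows of 300 bases, from 250 before to 50 after a gene start, written 5′ to 3′ on the strand of the gene. NUPR1, EIF4EBP1, PSPH, SHMT2, ALDH1L2, PYCR1 and INHBE had no entry. Windows were searched on both strands for the C/EBP-ATF response element TGATGNAA, which ATF4 binds with C/EBP partners, and for the ER stress response element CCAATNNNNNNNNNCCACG. The first was found in 6 of 43 windows, those of ASNS, ATF3, CEBPG, CHAC1, HERPUD1 and JDP2, against 3.617% of all 35116 windows in the RefSeq table. The ER stress element was found in 2 of the 43, those of HSPA5 and XBP1, against 0.07689% of all windows, and no match overlapped one of another motif. Searched for as well were CACGTG, the E-box that MYC binds, found in 5 of the 43 windows (1 each of ALDH18A1, DNAJB9 and HERPUD1 and 2 overlapping windows of ATF4) against 7.256% of all windows, and TGACGTGG, the unfolded protein response element, found in 1 (ALDH18A1) against 0.729%. The HERPUD1 window below holds the E-box, left in lower case. These are matches of letters, not sites of measured binding. The windows below are shown because these genes hold the letters known for both arms of the response and differ in direction in 1xSRSF3. There they were lower (ASNS, CHAC1, HERPUD1), higher (ATF3) or without a call (HSPA5, XBP1). CEBPG and JDP2, whose windows hold the first element too, are not shown. Capitals mark the match, which reads on the opposite strand in CHAC1 and HERPUD1.
ASNS promoter, chr7:97872359-97872658, minus strand: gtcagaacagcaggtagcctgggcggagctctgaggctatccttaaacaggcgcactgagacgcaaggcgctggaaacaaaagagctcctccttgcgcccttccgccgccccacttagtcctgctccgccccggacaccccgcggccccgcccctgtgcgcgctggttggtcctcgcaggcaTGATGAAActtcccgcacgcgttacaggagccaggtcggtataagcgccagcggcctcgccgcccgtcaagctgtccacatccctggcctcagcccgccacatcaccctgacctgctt
CHAC1 promoter, chr15:40953221-40953520, plus strand: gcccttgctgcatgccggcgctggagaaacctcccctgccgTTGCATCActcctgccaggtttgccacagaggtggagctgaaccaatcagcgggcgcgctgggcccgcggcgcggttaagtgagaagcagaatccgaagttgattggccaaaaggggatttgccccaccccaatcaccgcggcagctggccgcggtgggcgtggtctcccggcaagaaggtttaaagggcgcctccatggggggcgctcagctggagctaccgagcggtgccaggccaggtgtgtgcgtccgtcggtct
HERPUD1 promoter, chr16:56931892-56932191, plus strand: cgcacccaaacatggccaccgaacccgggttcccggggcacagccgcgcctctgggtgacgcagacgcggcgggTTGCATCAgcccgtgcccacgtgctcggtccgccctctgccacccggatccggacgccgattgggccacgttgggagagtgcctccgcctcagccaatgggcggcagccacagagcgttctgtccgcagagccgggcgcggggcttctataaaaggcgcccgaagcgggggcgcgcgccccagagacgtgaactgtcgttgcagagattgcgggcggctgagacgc
ATF3 promoter, chr1:212565157-212565456, plus strand: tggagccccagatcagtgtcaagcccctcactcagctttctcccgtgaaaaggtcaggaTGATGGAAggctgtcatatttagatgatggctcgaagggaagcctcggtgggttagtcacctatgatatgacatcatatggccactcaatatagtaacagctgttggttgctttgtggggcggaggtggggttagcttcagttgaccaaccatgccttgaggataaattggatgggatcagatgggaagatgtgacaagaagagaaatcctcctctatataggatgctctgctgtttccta
HSPA5 promoter, chr9:125241294-125241593, minus strand: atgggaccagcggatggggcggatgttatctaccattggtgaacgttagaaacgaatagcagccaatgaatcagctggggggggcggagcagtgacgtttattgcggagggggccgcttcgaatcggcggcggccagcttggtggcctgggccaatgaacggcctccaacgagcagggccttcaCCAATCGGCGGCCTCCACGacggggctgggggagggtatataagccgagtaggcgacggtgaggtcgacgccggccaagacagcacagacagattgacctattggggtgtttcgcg
XBP1 promoter, chr22:28800520-28800819, minus strand: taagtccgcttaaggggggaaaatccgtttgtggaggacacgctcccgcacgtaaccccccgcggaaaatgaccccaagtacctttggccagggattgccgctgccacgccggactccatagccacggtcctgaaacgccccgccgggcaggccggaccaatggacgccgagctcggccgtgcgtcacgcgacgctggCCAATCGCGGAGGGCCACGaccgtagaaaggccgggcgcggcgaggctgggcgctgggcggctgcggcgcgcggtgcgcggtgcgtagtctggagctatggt

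The response did not move as a block in these cells. In MYC-OE 19 of the 35 genes were higher than in 3XCTL and 1 was lower, and in 1xSRSF7 14 were higher than in 1xCtrl and 1 was lower. In 1xSRSF3 the balance was the other way, with 7 higher and 14 lower. The libraries labelled 3XSR (9 higher, 9 lower) and 1xSRSF2 (7 higher, 8 lower) were split. A gene counts as higher or lower here where the edgeR quasi-likelihood test, adjusted by Benjamini-Hochberg over all genes of the table, gave under 0.05. Errors after ± are standard errors for log2 fold changes. By the same rule 15.3% of all genes passed as higher and 13.7% as lower in the libraries labelled 3XSR, 18.0% and 17.3% in MYC-OE, 11.6% and 11.9% in those labelled 1xSRSF2, 15.0% and 14.1% in 1xSRSF3, and 9.03% and 8.26% in 1xSRSF7. In either direction that was 29.0%, 35.3%, 23.5%, 29.2% and 17.3% of all genes in the same order, beside 18, 20, 15, 21 and 15 of the 35.

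The median log2 fold change of the 35 genes was 0.27 in MYC-OE, 0.22 in 1xSRSF7, -0.12 in 1xSRSF3, 0.02 in the libraries labelled 3XSR and -0.01 in those labelled 1xSRSF2, beside medians over all tested genes that lay between -0.03 and 0.00. Taken library by library, 25 to 29 of the 35 were above the mean of 3XCTL in the 3 MYC-OE libraries and 28 or 29 above that of 1xCtrl in the 3 1xSRSF7 libraries. In 1xSRSF3 the number was 8 to 12. The libraries of 3XCTL themselves had 18 to 20 above their own mean and those of 1xCtrl 16 to 19. Over all tested genes the median ratio lay between -0.002 and 0 in MYC-OE, 0.005 and 0.008 in 1xSRSF7 and -0.023 and 0.013 in 1xSRSF3. Over the 5 comparisons 4 genes passed the test in each one (ALDH1L2, CEBPB, DDIT4 and PHGDH), 2 in none (CEBPG and DDIT3), 12 only as higher, 8 only as lower and 13 in both directions. The shares of all genes with these patterns were not counted. With the GC trend removed CEBPB kept its call only in the libraries labelled 3XSR and DDIT4 only in 1xSRSF3. Under other alternatives ALDH1L2 lost its call in the libraries labelled 3XSR, and PHGDH in 1xSRSF7 and in those labelled 1xSRSF2. Scaling by total counts alone moved the median of all genes to -0.14 in 1xSRSF3 and changed the split there to 6 higher and 18 lower, and that of the libraries labelled 1xSRSF2 to 5 higher and 10 lower. The median of all genes in the latter was then -0.07. Of all genes 9.42% then passed as higher and 20% as lower in 1xSRSF3, and 9.2% and 15.8% in the libraries labelled 1xSRSF2. Leaving out 1xCtrl replicate 2 gave 21 higher and 2 lower in 1xSRSF7 and 11 higher and 9 lower in those labelled 1xSRSF2. The share of all genes that passed grew as well, to 29.2% in 1xSRSF7 (16.4% higher, 12.8% lower) and to 30.0% in the libraries labelled 1xSRSF2 (14.5% and 15.6%), so the gain was not limited to these genes. Conversely, leaving out 1xSRSF7 replicate 1 gave 9 higher in 1xSRSF7, with 6.44% of all genes higher. The single lower gene of MYC-OE became 3 with total counts alone or without 3XCTL replicate 2, and 2 without 3XCTL replicate 1 or 3. Of all genes 20.2% and 18.2% were lower in the first 2 settings and 15.2% and 14.8% in the others.

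**Figure D1:**
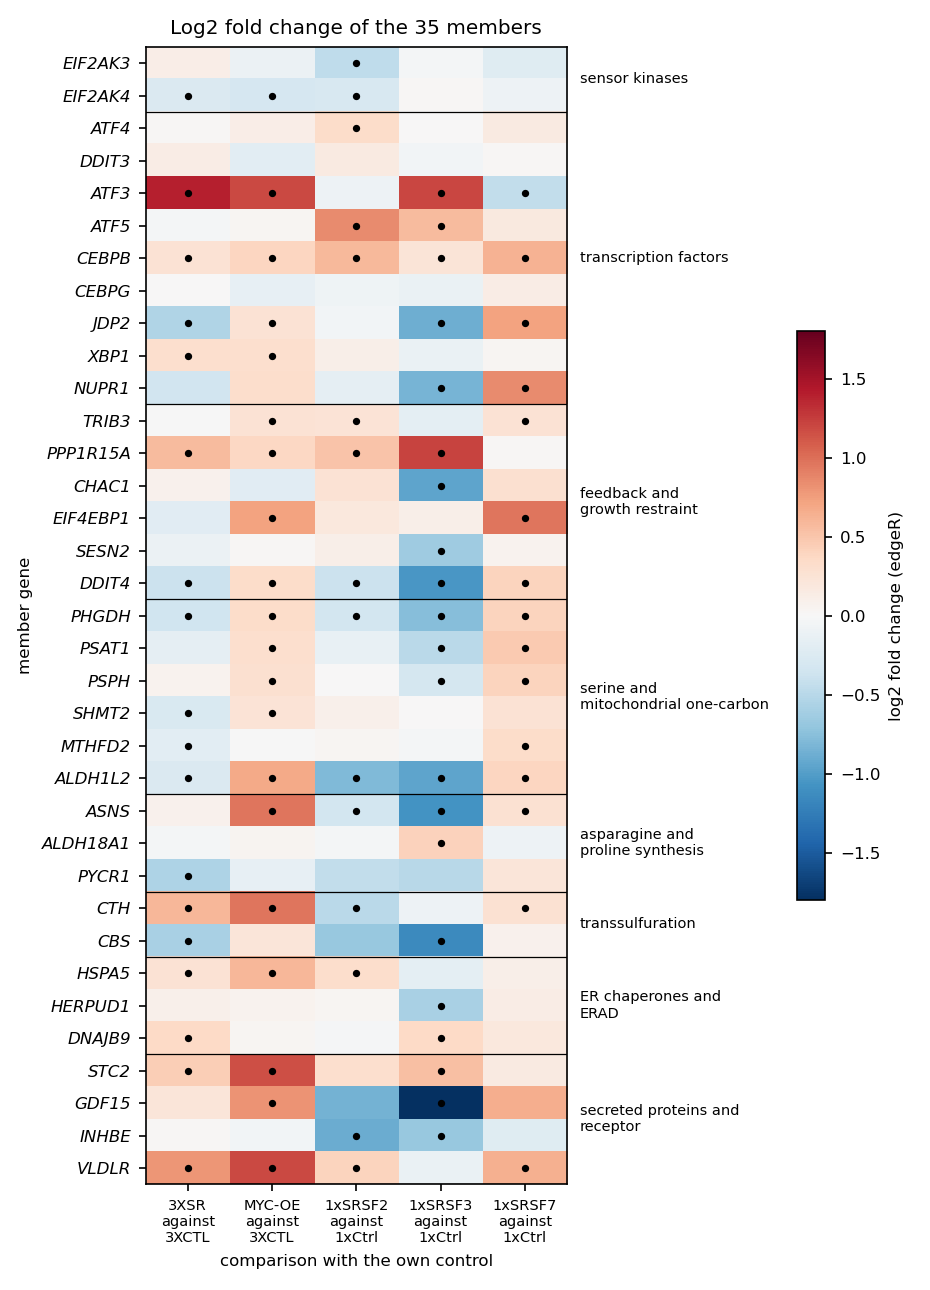
Log2 fold change of each of the 35 genes (rows, ordered by role) in each line against its own control (columns), with a dot where the edgeR adjusted p was under 0.05. MYC-OE and 1xSRSF7 are mostly on the side of higher values, with 19 and 14 genes called higher, and 1xSRSF3 holds 14 called lower.

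**Figure D2:**
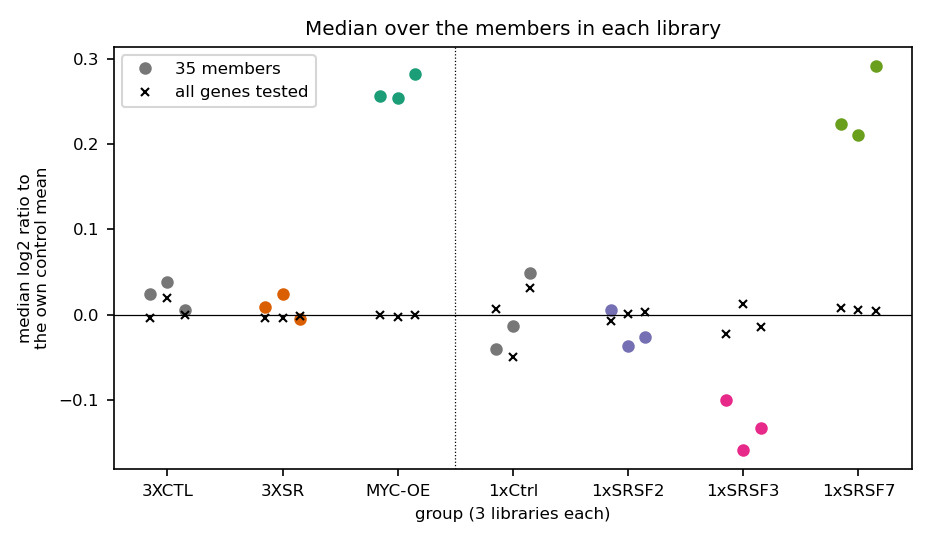
Median over the 35 genes of the log2 ratio of each library to the mean of its own control group, with 1 point a library and the same median over all tested genes beside it. The 3 MYC-OE libraries lie between 0.25 and 0.28 and the 3 1xSRSF3 libraries between -0.16 and -0.10.

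Among the sensor kinases, neither gene passed as higher than its control in any line. EIF2AK4, the sensor of uncharged tRNA, read 163, 168 and 153 CPM in the 3 libraries of 3XCTL, 143, 126 and 136 in those labelled 3XSR and 134, 128 and 129 in MYC-OE. The control libraries were all above the others, with log2 fold change -0.26 ± 0.058, edgeR adjusted p = 0.00536 in the libraries labelled 3XSR and log2 fold change -0.31 ± 0.058, edgeR adjusted p = 0.00137 in MYC-OE. It was also lower in the libraries labelled 1xSRSF2 (-0.29, edgeR adjusted p = 0.00669), and it did not pass the test in 1xSRSF3 or 1xSRSF7. EIF2AK3, the ER-membrane kinase, passed only in the libraries labelled 1xSRSF2, where it fell from 24.3, 21.2 and 25.8 CPM in 1xCtrl to 17.7, 16.7 and 17.8 (log2 fold change -0.45 ± 0.0967, edgeR adjusted p = 0.00439), with no overlap of the groups. Its value of 0.13 in the libraries labelled 3XSR (edgeR adjusted p = 0.182) became a call without 3XCTL replicate 2 (0.19, edgeR adjusted p = 0.022), and that of -0.22 in 1xSRSF7 (edgeR adjusted p = 0.146) without 1xCtrl replicate 2 (edgeR adjusted p = 0.0286) or once the GC trend was taken out (0.0357).

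Of the transcription factors ATF4 and DDIT3, ATF4 passed in 1 line and DDIT3 in none. ATF4, the central activator, read 221, 222 and 209.6 CPM in 3XCTL, 219, 221 and 221 in the libraries labelled 3XSR and 236, 229 and 247 in MYC-OE, and neither difference passed the test (log2 fold change 0.02 with SE 0.0473 and 0.12 with SE 0.0473, edgeR adjusted p = 0.827 and 0.0595). In the second table it read 216, 201 and 225 CPM in 1xCtrl, 272, 277 and 257 in the libraries labelled 1xSRSF2, 217, 211 and 218 in 1xSRSF3 and 241, 245 and 234 in 1xSRSF7. The rise in the libraries labelled 1xSRSF2 passed the test (log2 fold change 0.33 ± 0.057, edgeR adjusted p = 0.00114), with no overlap. The values of 0.01 in 1xSRSF3 and 0.17 in 1xSRSF7 did not (edgeR adjusted p = 0.912 and 0.0627). The MYC-OE and 1xSRSF7 libraries all lay above their controls. MYC-OE passed under RLE scaling, upper-quartile scaling, DESeq2 and without 3XCTL replicate 2, and 1xSRSF7 under total counts alone and both other filters. DDIT3, the factor CHOP that acts in prolonged ER stress, lay between 23.9 and 33.8 CPM in the first table and between 31.6 and 41.5 in the second, and overlapped with its control in each of the 5 comparisons, with log2 fold changes from -0.19 in MYC-OE to 0.16 in the libraries labelled 1xSRSF2 (edgeR adjusted p from 0.0885 to 0.871). It passed as higher in the libraries labelled 3XSR without 3XCTL replicate 2 (0.21, edgeR adjusted p = 0.0238), and as lower in MYC-OE without 3XCTL replicate 1 (-0.24, edgeR adjusted p = 0.047) or with total counts alone (-0.22, edgeR adjusted p = 0.0414). CEBPG, which pairs with ATF4 on DNA, lay between -0.15 and 0.13 and passed in none. Its lower values in MYC-OE and 1xSRSF3 did pass with total counts alone, with the GC trend removed and without 1 library (3XCTL replicate 3 and 1xSRSF3 replicate 3), with edgeR adjusted p from 0.00988 to 0.034.

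ATF3, a stress-induced repressor and activator of the same family, passed in 4 lines and had the largest change among the factors in the libraries labelled 3XSR, in MYC-OE and in 1xSRSF3. It read 3.01, 3.42 and 3.51 CPM in 3XCTL, 8.68, 8.15 and 9.25 in the libraries labelled 3XSR and 7.36, 7.29 and 7.89 in MYC-OE. Both groups lay above all control libraries, with log2 fold change 1.39 ± 0.092, edgeR adjusted p = 6.12e-07 for the libraries labelled 3XSR and log2 fold change 1.18 ± 0.0915, edgeR adjusted p = 1.37e-06 for MYC-OE. Among the single lines it read 5.95, 6.08 and 6.58 CPM in 1xCtrl, 14.8, 13.6 and 14.2 in 1xSRSF3 and 4.27, 4.81 and 4.67 in 1xSRSF7. The 1xSRSF3 libraries lay above all others of that table (log2 fold change 1.20 ± 0.0822, edgeR adjusted p = 5.8e-07), and those of 1xSRSF7 below all controls (log2 fold change -0.44 ± 0.0815, edgeR adjusted p = 0.00312). The libraries labelled 1xSRSF2, at 5.74, 5.77 and 5.88 CPM, lay just under the controls, and the difference of -0.10 did not pass (edgeR adjusted p = 0.438).

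CEBPB, another partner of ATF4, was higher in each of the 5 lines. Its levels were 14.8, 16.8 and 17.2 CPM in 1xCtrl, 23.8, 24.9 and 24.3 in the libraries labelled 1xSRSF2 and 23.8, 24.1 and 27.3 in 1xSRSF7, with no overlap (log2 fold change 0.58 ± 0.0778, edgeR adjusted p = 0.000193 and log2 fold change 0.63 ± 0.0778, edgeR adjusted p = 0.000286). The other 3 lines gave 0.25 (libraries labelled 3XSR), 0.39 (MYC-OE) and 0.23 (1xSRSF3). CEBPB has a GC-rich transcript (66.2%), and with each library's trend with GC content removed the call was kept in the libraries labelled 3XSR and lost in the other 4 lines (edgeR adjusted p from 0.14 to 0.359). In 1xSRSF3 it was also lost without any one of 1xCtrl replicates 1 and 3 and 1xSRSF3 replicates 1, 2 and 3 (edgeR adjusted p from 0.102 to 0.432), and in the libraries labelled 3XSR without replicate 1 or 3 of that group (0.0582 and 0.0628). In 1xSRSF3 9 other settings ended it too, total counts alone among them (0.12).

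The remaining factors split the lines. JDP2, a repressor of AP-1 genes, read 14.1, 18.1 and 12.9 CPM in 1xCtrl, 7.66, 8.30 and 8.56 in 1xSRSF3 and 24.0, 22.9 and 27.4 in 1xSRSF7. The 3 groups did not overlap, and JDP2 fell in 1xSRSF3 (log2 fold change -0.88 ± 0.118, edgeR adjusted p = 0.000115) and rose in 1xSRSF7 (log2 fold change 0.72 ± 0.117, edgeR adjusted p = 0.00153). It was lower in the libraries labelled 3XSR (-0.54, and -0.36 with the GC trend removed) and higher in MYC-OE (0.27, and 0.18 without 3XCTL replicate 2), a call that was also lost without 3XCTL replicate 3 or any 1 MYC-OE library (edgeR adjusted p from 0.0501 to 0.0914). NUPR1, a small nuclear protein induced by stress, read 6.11, 10.8 and 5.86 CPM in 1xCtrl, with replicate 2 the high one, 4.36, 3.76 and 4.63 in 1xSRSF3 and 13.6, 12.1 and 15.4 in 1xSRSF7. All 1xSRSF3 libraries lay below and all 1xSRSF7 libraries above the controls (log2 fold change -0.83 ± 0.201, edgeR adjusted p = 0.00832 and log2 fold change 0.86 ± 0.199, edgeR adjusted p = 0.0128). Without 1xCtrl replicate 2 the value in 1xSRSF3 was -0.50. The 1xSRSF7 call was lost without 1xCtrl replicate 1 or 3 or 1xSRSF7 replicate 1 or 3 (edgeR adjusted p from 0.0713 to 0.105) and the 1xSRSF3 call without 1xSRSF3 replicate 2 (0.0529). ATF5, an ATF4 target with a role in the mitochondrial branch of the response, rose from 7.22, 8.99 and 7.70 CPM in 1xCtrl to 15.0, 14.5 and 13.8 in the libraries labelled 1xSRSF2 (log2 fold change 0.86 ± 0.103, edgeR adjusted p = 8.76e-05) and to 12.7, 10.9 and 11.9 in 1xSRSF3 (log2 fold change 0.57 ± 0.103, edgeR adjusted p = 0.001), with no overlap. It did not pass in the other 3 lines.

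XBP1, whose unspliced mRNA is the substrate of IRE1, was higher in both lines of the first table and passed in none of the second. It read 144, 160.5 and 158 CPM in 3XCTL, 186, 192 and 191 in the libraries labelled 3XSR and 191, 188 and 188 in MYC-OE, all above the controls (log2 fold change 0.30 ± 0.0506, edgeR adjusted p = 0.000892 and log2 fold change 0.30 ± 0.0506, edgeR adjusted p = 0.000707). Against 175, 152 and 177 CPM in 1xCtrl stood 175, 186 and 182 in the libraries labelled 1xSRSF2, 161, 150.3 and 153 in 1xSRSF3 and 179.9, 179 and 159 in 1xSRSF7. These groups overlapped with the control, at log2 fold changes of 0.11, -0.12 and 0.04 (edgeR adjusted p = 0.32, 0.243 and 0.785). The 1xSRSF3 value passed as lower with total counts alone, with the GC trend removed and without 1xCtrl replicate 2 or 1xSRSF3 replicate 1. Spliced and unspliced XBP1 are not separated in gene counts.

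Among the genes of feedback and growth restraint, PPP1R15A rose in 4 of the 5 lines. It encodes GADD34, which guides a phosphatase to eIF2 and so reverses the signal. It read 65.7, 75.0 and 64.3 CPM in 1xCtrl, 98.6, 99.1 and 94.8 in the libraries labelled 1xSRSF2, 161, 151 and 164 in 1xSRSF3 and 66.7, 69.3 and 71.5 in 1xSRSF7. All 1xSRSF3 libraries lay above all others of that table (log2 fold change 1.22 ± 0.066, edgeR adjusted p = 9.5e-08), and the libraries labelled 1xSRSF2 lay above the controls too (log2 fold change 0.51 ± 0.0653, edgeR adjusted p = 0.000131). In 1xSRSF7 the groups overlapped (0.02, edgeR adjusted p = 0.896). In the first table it rose from 63.0, 59.5 and 61.8 CPM in 3XCTL to 88.3, 94.1 and 90.3 in the libraries labelled 3XSR (log2 fold change 0.56 ± 0.0478, edgeR adjusted p = 4.45e-06), and by 0.37 in MYC-OE.

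DDIT4, an inhibitor of the growth kinase mTORC1, changed in all 5 lines, in both directions. Against 159, 187 and 155 CPM in 1xCtrl it read 80.7, 78.7 and 82.8 in 1xSRSF3, and all 3 libraries lay below the controls (log2 fold change -1.05 ± 0.0767, edgeR adjusted p = 8.98e-07). The libraries labelled 1xSRSF2 and 3XSR were also lower (-0.39 and -0.39), and MYC-OE and 1xSRSF7 higher (0.33 and 0.40). With the GC trend removed only the 1xSRSF3 call was kept: the others read -0.15 (libraries labelled 3XSR), 0.16 (MYC-OE), -0.38 (libraries labelled 1xSRSF2) and 0.18 (1xSRSF7), with edgeR adjusted p from 0.133 to 0.513. The 1xSRSF7 call was lost without 1xCtrl replicate 1 or 1xSRSF7 replicate 3 as well (0.0539 and 0.07).

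EIF4EBP1, which holds back the cap-binding factor eIF4E, passed in MYC-OE and 1xSRSF7, where it rose. It read 16.8, 13.4 and 14.7 CPM in 3XCTL and 24.4, 24.4 and 25.6 in MYC-OE (log2 fold change 0.73 ± 0.0953, edgeR adjusted p = 9.61e-05), and 10.7, 15.4 and 9.09 in 1xCtrl and 21.3, 23.4 and 23.7 in 1xSRSF7 (log2 fold change 0.96 ± 0.153, edgeR adjusted p = 0.00173). Neither pair of groups overlapped. TRIB3, a pseudokinase that feeds back on ATF4, was higher by 0.25 in MYC-OE, 0.24 in the libraries labelled 1xSRSF2 and 0.27 in 1xSRSF7. With the GC trend removed none of these 3 calls was kept (edgeR adjusted p = 0.451, 0.29 and 0.731), and each of 1xCtrl replicates 1 and 3 and the 3 libraries of the line ended the 2 calls of the second table when left out. Its value in the libraries labelled 1xSRSF2 was 0.16 without 1xCtrl replicate 1. CHAC1, which degrades glutathione, and SESN2, a leucine sensor that restrains mTORC1, passed only in 1xSRSF3, where both fell. Each of the other 4 values of CHAC1 passed under 1 or 2 alternatives, and that of SESN2 in the libraries labelled 1xSRSF2 without 1xCtrl replicate 2. CHAC1 read 4.20, 5.13 and 3.12 CPM in 1xCtrl and 2.20, 2.27 and 1.99 in 1xSRSF3 (log2 fold change -0.95 ± 0.154, edgeR adjusted p = 0.000486). SESN2 fell by a smaller step (log2 fold change -0.64 ± 0.105, edgeR adjusted p = 0.000534), and for neither did the groups overlap.

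**Figure D3:**
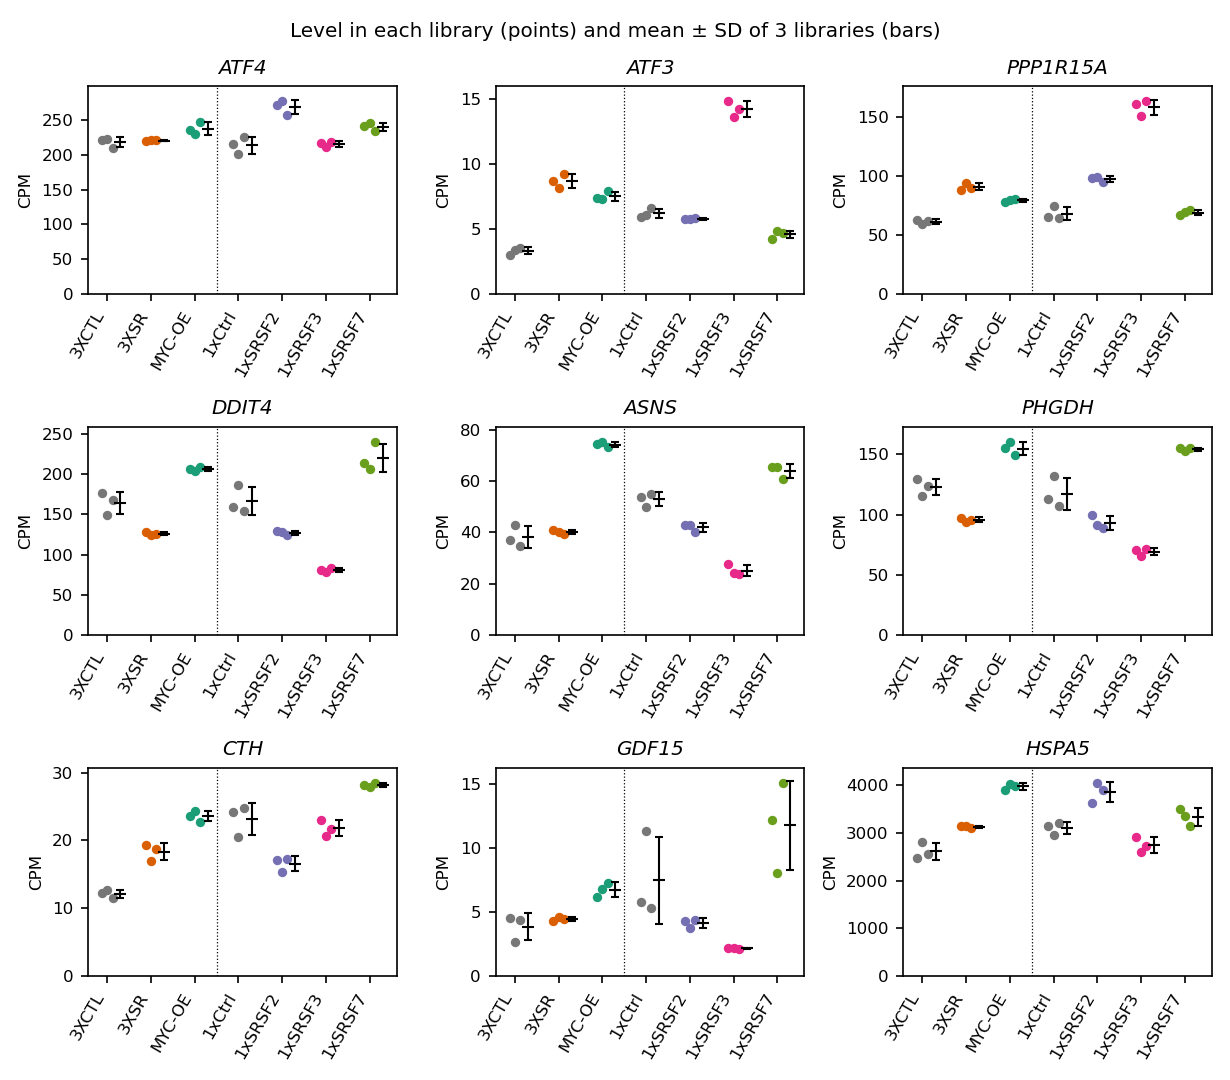
CPM of selected genes in each of the 21 libraries (1 point a library, with the mean and SD of each group), each panel with its own axis. Within the second table ATF3 and PPP1R15A are highest in 1xSRSF3, at 14.2 ± 0.610 and 159 ± 6.39 CPM (SD, n = 3), while ASNS is lowest there, at 25.1 ± 2.08 CPM.

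The enzymes of serine synthesis and mitochondrial one-carbon metabolism were higher in MYC-OE and 1xSRSF7 and lower in the other lines, where they passed. PHGDH, PSAT1 and PSPH make serine from a glycolytic intermediate, and SHMT2, MTHFD2 and ALDH1L2 carry its carbon through folate in mitochondria. Of these 6 genes, 5 were higher in MYC-OE (all but MTHFD2) and 5 in 1xSRSF7 (all but SHMT2), and none was lower in either. In the libraries labelled 3XSR 4 were lower (PHGDH, SHMT2, MTHFD2 and ALDH1L2), in those labelled 1xSRSF2 2 (PHGDH and ALDH1L2) and in 1xSRSF3 4 (PHGDH, PSAT1, PSPH and ALDH1L2), with none higher.

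PHGDH, the first enzyme of the route, read 129.5, 116 and 124 CPM in 3XCTL, 97.5, 93.6 and 95.7 in the libraries labelled 3XSR and 155, 159.9 and 149 in MYC-OE. The 3 groups did not overlap (log2 fold change -0.36 ± 0.0531, edgeR adjusted p = 0.000324 and log2 fold change 0.33 ± 0.053, edgeR adjusted p = 0.00044). In the second table it read 113, 132 and 107 CPM in 1xCtrl, 100, 90.9 and 89.1 in the libraries labelled 1xSRSF2, 70.8, 66.0 and 71.0 in 1xSRSF3 and 155, 153 and 155 in 1xSRSF7. The 4 groups were separate, with 1xSRSF3 lowest (log2 fold change -0.76 ± 0.077, edgeR adjusted p = 1.32e-05) and 1xSRSF7 highest (log2 fold change 0.40 ± 0.0766, edgeR adjusted p = 0.00396). The 1xSRSF7 call was lost without 1xCtrl replicate 1 or 1xSRSF7 replicate 1 (edgeR adjusted p = 0.0717 and 0.051), and that in the libraries labelled 1xSRSF2 when only the groups compared were fitted (0.0671).

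PSAT1, the second enzyme, rose from 114, 104 and 121 CPM in 1xCtrl to 149.7, 163 and 158 in 1xSRSF7 (log2 fold change 0.47 ± 0.0686, edgeR adjusted p = 0.000803) and fell to 84.5, 76.5 and 81.4 in 1xSRSF3 (log2 fold change -0.48 ± 0.0687, edgeR adjusted p = 0.000183). PSPH, the last step, moved alike by smaller amounts (0.40 and -0.32), and no library of either line overlapped with 1xCtrl for these genes. ALDH1L2, a mitochondrial folate dehydrogenase, spanned the widest range of the 6. It read 43.8, 37.3 and 40.9 CPM in 1xCtrl, 23.9, 23.6 and 22.8 in the libraries labelled 1xSRSF2, 21.7, 21.2 and 20.3 in 1xSRSF3 and 52.6, 56.6 and 49.5 in 1xSRSF7. Both of the lower groups lay under all controls (log2 fold change -0.79 ± 0.0712, edgeR adjusted p = 9.88e-06 and log2 fold change -0.95 ± 0.0714, edgeR adjusted p = 1.21e-06) and 1xSRSF7 above them (log2 fold change 0.38 ± 0.0707, edgeR adjusted p = 0.00311). MYC-OE was higher by 0.68. The lower values of ALDH1L2 (-0.26) and MTHFD2 (-0.19) in the libraries labelled 3XSR were close to the threshold (edgeR adjusted p = 0.0445 and 0.048) and read -0.14 and -0.12 without 3XCTL replicate 2. Leaving out 4 of the 6 libraries, one at a time, ended the first call (3XCTL replicates 2 and 3, 3XSR replicates 1 and 3) and leaving out any but 3XCTL replicate 3 the second. SHMT2 was higher in MYC-OE (0.24) and lower in the libraries labelled 3XSR (-0.27, and -0.12 with the GC trend removed), and MTHFD2 was higher in 1xSRSF7 (0.32).

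ASNS, asparagine synthetase and a classical ATF4 target, rose in MYC-OE and 1xSRSF7 and fell in 1xSRSF3 and in the libraries labelled 1xSRSF2. In the first table it read 37.0, 42.7 and 34.5 CPM in 3XCTL, 40.7, 40.1 and 39.4 in the libraries labelled 3XSR and 74.2, 75.0 and 73.3 in MYC-OE, where all libraries lay far above the controls (log2 fold change 0.96 ± 0.0692, edgeR adjusted p = 7.56e-07). The libraries labelled 3XSR overlapped with the control (0.07, edgeR adjusted p = 0.466). In the table of single lines it read 53.9, 49.7 and 54.9 CPM in 1xCtrl, 42.8, 43.0 and 39.9 in the libraries labelled 1xSRSF2, 27.5, 24.2 and 23.6 in 1xSRSF3 and 65.5, 65.5 and 60.8 in 1xSRSF7. None of these 4 groups overlapped with another, and all 3 differences from 1xCtrl passed (-0.33 in the libraries labelled 1xSRSF2, -1.08 with SE 0.0709 in 1xSRSF3 and 0.28 with SE 0.07 in 1xSRSF7). The last was lost without 1xSRSF7 replicate 1 (edgeR adjusted p = 0.0508) and with upper-quartile scaling (0.0529). The promoter window of ASNS printed above holds the element 68 bases before the gene start.

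Of the enzymes of proline synthesis, ALDH18A1 passed only in 1xSRSF3, where it was higher (285, 266 and 286 CPM against 206, 201 and 219, log2 fold change 0.42 ± 0.0593, edgeR adjusted p = 0.000184). PYCR1 passed in the libraries labelled 3XSR, and elsewhere only under some alternatives. It read 93.8, 69.1 and 92.0 CPM in 3XCTL and 54.7, 61.7 and 56.3 in that group, which lay below all controls (log2 fold change -0.56 ± 0.102, edgeR adjusted p = 0.00213, and -0.31 with the GC trend removed). In 1xCtrl PYCR1 read 53.5, 90.4 and 49.3 CPM, with replicate 2 far above the other 2 libraries. With the GC trend removed it passed as lower in MYC-OE (-0.22), in the libraries labelled 1xSRSF2 (-0.35) and in 1xSRSF3 (-0.27), and without 1xCtrl replicate 2 it passed as higher in 1xSRSF7 (0.56), with edgeR adjusted p from 0.000138 to 0.00377. It also passed in MYC-OE without 3XCTL replicate 2, and in 1xSRSF3 under DESeq2 and without 1xCtrl replicate 3. As first fitted those 4 values were -0.14, -0.45, -0.49 and 0.22.

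The transsulfuration enzymes CBS and CTH turn homocysteine into cysteine in sequence. Against the own control both passed in the libraries labelled 3XSR alone, where CTH was higher and CBS lower. CTH, the second step, read 12.2, 12.7 and 11.4 CPM in 3XCTL, 19.3, 17.0 and 18.7 in the libraries labelled 3XSR and 23.6, 24.3 and 22.8 in MYC-OE, with both groups above all controls (log2 fold change 0.60 ± 0.069, edgeR adjusted p = 5.43e-05 and log2 fold change 0.96 ± 0.0691, edgeR adjusted p = 7.7e-07). In the second table it read 24.1, 20.5 and 24.8 CPM in 1xCtrl and 17.1, 15.3 and 17.3 in the libraries labelled 1xSRSF2, which lay below (log2 fold change -0.48 ± 0.0807, edgeR adjusted p = 0.000895), and it was higher by 0.28 in 1xSRSF7. That last call was lost without 1xSRSF7 replicate 1 or 3 (edgeR adjusted p = 0.0589 and 0.0857). CBS, the first step, fell from 31.1, 23.9 and 30.0 CPM in 3XCTL to 17.1, 20.8 and 18.8 in the libraries labelled 3XSR (log2 fold change -0.58 ± 0.103, edgeR adjusted p = 0.00142) and from 24.7, 42.6 and 21.7 in 1xCtrl to 11.4, 14.8 and 14.2 in 1xSRSF3 (log2 fold change -1.14 ± 0.231, edgeR adjusted p = 0.00449). Neither pair of groups overlapped, and 1xCtrl replicate 2 was again the high control. The tables also count CBSL, a nearly identical copy, so the level of CBS is uncertain. In the libraries labelled 1xSRSF2 CBS also lay below all controls (-0.69, edgeR adjusted p = 0.0569), as CTH did, and it passed there under 6 alternatives. In MYC-OE both genes lay above all controls, CBS at 0.22 (edgeR adjusted p = 0.12). With CBS and CBSL summed the differences in the libraries labelled 3XSR and in 1xSRSF3 were -0.56 and -1.17.

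Among the ER genes HSPA5, the chaperone BiP and by length the most abundant of the 35 in each group (669 to 1016 CPM per kilobase of exon as group means, while no other gene exceeded 107), was higher in 3 lines. It read 2477, 2812 and 2553 CPM in 3XCTL, 3138, 3145 and 3095 in the libraries labelled 3XSR and 3898, 4031 and 3988 in MYC-OE, and the 3 groups were separate (log2 fold change 0.26 ± 0.0539, edgeR adjusted p = 0.00362 and log2 fold change 0.60 ± 0.0541, edgeR adjusted p = 4.71e-06). In the second table it read 3136, 2961 and 3217 CPM in 1xCtrl, 3628, 4037 and 3898 in the libraries labelled 1xSRSF2, 2920.3, 2599 and 2718 in 1xSRSF3 and 3509.8, 3358 and 3141 in 1xSRSF7. The libraries labelled 1xSRSF2 lay above all controls (log2 fold change 0.31 ± 0.0711, edgeR adjusted p = 0.00639). All 1xSRSF3 libraries lay below them, but the difference of -0.18 did not pass (edgeR adjusted p = 0.0799); it did under 6 other settings and without 1xCtrl replicate 1 or 2 or 1xSRSF3 replicate 1. In 1xSRSF7 the groups overlapped (0.10, edgeR adjusted p = 0.358).

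HERPUD1, an adaptor of ER-associated degradation whose promoter window holds the C/EBP-ATF element, passed only in 1xSRSF3. It fell there from 83.1, 73.9 and 87.1 CPM in 1xCtrl to 52.3, 54.2 and 56.1 (log2 fold change -0.59 ± 0.066, edgeR adjusted p = 3.05e-05), with no overlap. Its value of 0.095 in the libraries labelled 3XSR (edgeR adjusted p = 0.209) passed as higher without 3XCTL replicate 2. That of 0.14 in 1xSRSF7 (edgeR adjusted p = 0.177) did so with the GC trend removed. DNAJB9, a cochaperone of HSPA5, was higher in 1xSRSF3 (0.36) and in the libraries labelled 3XSR (0.36). In 1xSRSF3, then, HERPUD1 was lower, DNAJB9 higher and HSPA5 uncalled.

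The secreted proteins and the receptor gave some of the widest steps. STC2, a secreted glycoprotein, read 115, 101 and 116 CPM in 3XCTL, 146, 153 and 152 in the libraries labelled 3XSR and 246, 243 and 252 in MYC-OE, with no overlap between any pair of these groups (log2 fold change 0.44 ± 0.0573, edgeR adjusted p = 0.000137 and log2 fold change 1.16 ± 0.0579, edgeR adjusted p = 3.65e-08). It was also higher in 1xSRSF3 (0.55, edgeR adjusted p = 0.00279), a call lost without 1xCtrl replicate 1 or 1xSRSF3 replicate 1 or 3 (0.0704 to 0.0825). VLDLR, a lipoprotein receptor and an ATF4 target at low level here, read 1.58, 1.65 and 1.43 CPM in 3XCTL, 2.70, 2.46 and 2.91 in the libraries labelled 3XSR and 3.63, 3.91 and 3.11 in MYC-OE, again with no overlap with the control (log2 fold change 0.79 ± 0.124, edgeR adjusted p = 0.000541 and log2 fold change 1.19 ± 0.124, edgeR adjusted p = 1.62e-05). In the second table it rose from 3.17, 2.60 and 2.35 CPM in 1xCtrl to 4.62, 4.34 and 3.64 in 1xSRSF7 (log2 fold change 0.63 ± 0.132, edgeR adjusted p = 0.00585) and by 0.41 in the libraries labelled 1xSRSF2 (edgeR adjusted p = 0.04). The last call was lost without any one of 1xCtrl replicates 2 and 3 and the 3 libraries of the group (0.0677 to 0.173).

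GDF15, a circulating stress hormone, showed the largest drop of any of the 35 genes. It read 5.78, 11.4 and 5.28 CPM in 1xCtrl, with replicate 2 above the mean of the other 2 by 1.03 on the log2 scale, and 2.16, 2.22 and 2.11 in 1xSRSF3 (log2 fold change -1.79 ± 0.3, edgeR adjusted p = 0.00134). Without 1xCtrl replicate 2 the drop was -1.36 (edgeR adjusted p = 0.000372). The libraries labelled 1xSRSF2 were at -0.85, which did not pass (edgeR adjusted p = 0.0605). That value did pass under DESeq2, with the GC trend removed and without 1xCtrl replicate 3. In the first table GDF15 rose from 4.53, 2.65 and 4.39 CPM in 3XCTL to 6.17, 6.80 and 7.29 in MYC-OE (log2 fold change 0.81 ± 0.17, edgeR adjusted p = 0.0033), with no overlap. The libraries labelled 3XSR were at 0.21 (edgeR adjusted p = 0.388) and passed as higher only with the GC trend removed. In 1xSRSF7 it read 12.2, 8.09 and 15.1 CPM and overlapped with 1xCtrl (0.66, edgeR adjusted p = 0.156), and without 1xCtrl replicate 2 it read 1.11 and passed (edgeR adjusted p = 0.00263). INHBE, an activin subunit, was lower in the libraries labelled 1xSRSF2 (0.906, 1.10 and 1.02 CPM against 1.71, 1.86 and 2.08 in 1xCtrl, log2 fold change -0.90 ± 0.128, edgeR adjusted p = 0.000302) and in 1xSRSF3 (-0.68).

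The direct comparison of 1xSRSF3 with 1xSRSF7, which does not use their shared control, separated the most genes. ATF3, PPP1R15A, ALDH18A1, ATF5 and STC2 were higher in 1xSRSF3 and 24 of the 35 were lower, 29 in all, where 35.2% of all genes passed in either direction (17.8% higher, 17.3% lower). The median over the 35 was -0.44, against -0.02 over all tested genes. By size the lower genes began with GDF15 (-2.44, SE 0.306), NUPR1 (-1.69, SE 0.204), JDP2 (-1.60, SE 0.119), DDIT4 (-1.45, SE 0.0774), ASNS (-1.35, SE 0.0713) and ALDH1L2 (-1.33, SE 0.0719), and ATF3 led the higher ones (1.63, SE 0.0831). All 6 genes of serine and one-carbon metabolism were lower in value, and 5 passed (all but SHMT2). The groups did not overlap for these 6, nor for 31 of the 35 in all, and the share over all genes was not counted. Only 3 genes counted as higher when scaled by total counts alone, where the median over all tested genes was -0.13, or without 1xSRSF3 replicate 1 or 3 or 1xSRSF7 replicate 1 or 2. Over all genes 12.6% to 14.8% were higher in these settings, in place of 17.8%. Among the 5, the call of STC2 was lost without any 1 of the 6 libraries (edgeR adjusted p from 0.0593 to 0.213) and that of ATF5 without 1xSRSF3 replicate 1 or 3 or 1xSRSF7 replicate 1 or 2 (0.0777 to 0.113).

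**Figure D4:**
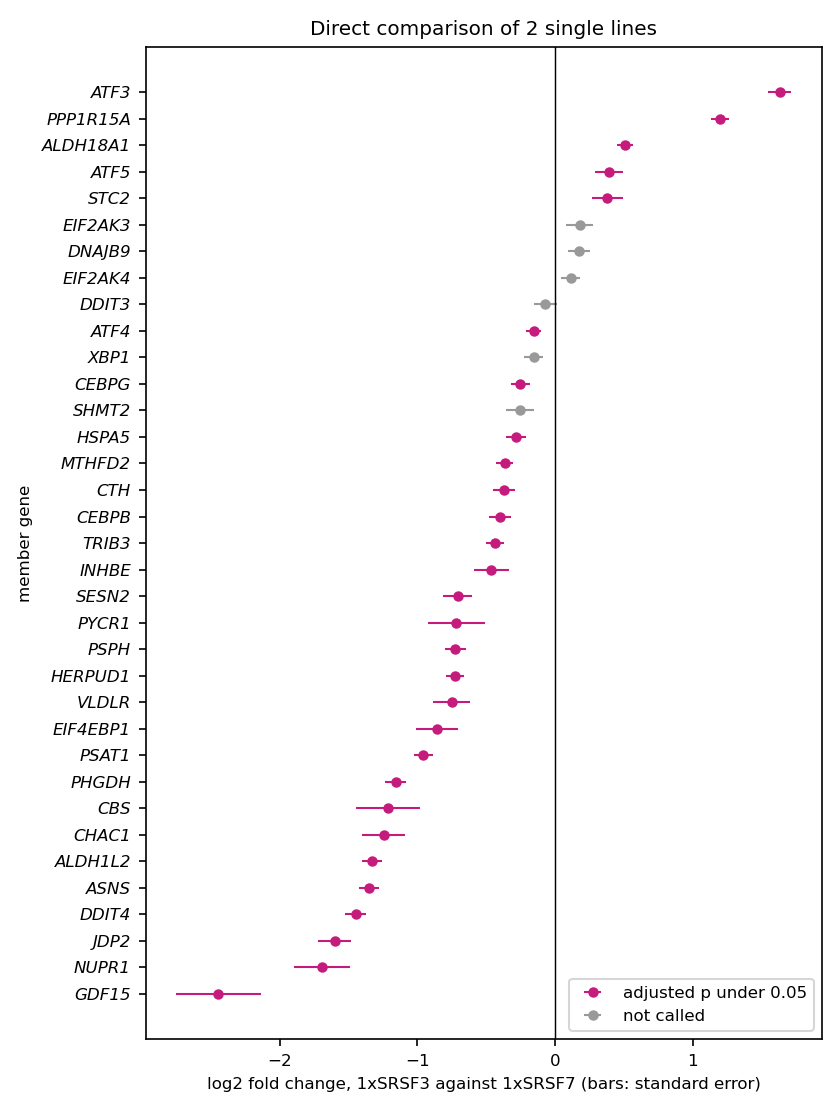
Log2 fold change of 1xSRSF3 against 1xSRSF7 for each of the 35 genes (rows, ordered by value), with bars for the standard error and grey points where the edgeR adjusted p was 0.05 or more. The values run from -2.44 for GDF15 to 1.63 for ATF3, and 6 genes were not called.

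MYC-OE and the libraries labelled 3XSR shared a control too, and compared directly 18 of the 35 genes were higher in MYC-OE and 4 lower, where 34.9% of all genes passed (17.3% higher, 17.6% lower). The 4 lower ones were EIF2AK3 (-0.24), DDIT3 (-0.32), PPP1R15A (-0.19) and DNAJB9 (-0.33). The higher ones held 5 of the 6 genes of serine and one-carbon metabolism, both transsulfuration genes, ASNS (0.89, SE 0.0691), EIF4EBP1 (0.93, SE 0.0958) and STC2 (0.71, SE 0.0574). ATF3 (-0.21, SE 0.0897, edgeR adjusted p = 0.0908) and XBP1 (-0.00, SE 0.0505, edgeR adjusted p = 0.968), higher than 3XCTL in both, did not pass between them. The calls of EIF2AK3 (without 3XSR replicate 3 or MYC-OE replicate 2 or 3), DNAJB9 (without 3XSR replicate 2) and PSPH (without 3XSR replicate 2 or 3 or MYC-OE replicate 1 or 2) were lost (edgeR adjusted p from 0.0521 to 0.147). With the GC trend removed EIF2AK3 read -0.11, DNAJB9 -0.16, PPP1R15A -0.37 and EIF4EBP1 0.52.

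The libraries labelled 1xSRSF2 differed from 1xSRSF3 in 24 of the 35 genes (17 higher, 7 lower, where 26.8% of all genes passed, 12.6% higher and 14.1% lower) and from 1xSRSF7 in 21 (4 higher, 17 lower, where 24.2% passed, 11.5% higher and 12.8% lower). Against 1xSRSF3 they were lower in ATF3 (-1.29, SE 0.0823) and PPP1R15A (-0.70, SE 0.0654) and higher in CHAC1 (1.21, SE 0.155), SESN2 (0.75, SE 0.105) and ASNS (0.74, SE 0.0705). Against 1xSRSF7 the lower genes included ALDH1L2 (-1.17, SE 0.0716), CTH (-0.77, SE 0.0809) and DDIT4 (-0.79, SE 0.0763), and the 4 higher ones were ATF5, PPP1R15A, ATF3 and HSPA5. The call of HSPA5 was lost without 1xSRSF2 replicate 2 or 3 or 1xSRSF7 replicate 2 or 3 (edgeR adjusted p from 0.112 to 0.170).

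The step of the libraries labelled 3XSR from 3XCTL was then tested against the step of each single line from 1xCtrl, in 1 fit over both tables. It differed from that of the libraries labelled 1xSRSF2 in 13 of the 35 genes (8 higher, 5 lower, where 21.9% of all genes passed, 13.3% higher and 8.53% lower), from that of 1xSRSF3 in 19 (15 higher, 4 lower, where 17.8% passed, 10.8% higher and 7.02% lower) and from that of 1xSRSF7 in 18 (5 higher, 13 lower, where 24.6% passed, 13.6% higher and 10.9% lower). The rise of ATF3 did not pass as different from that in 1xSRSF3 (0.21, SE 0.11, edgeR adjusted p = 0.214) and exceeded the step in the libraries labelled 1xSRSF2 (edgeR adjusted p = 1.24e-08) and in 1xSRSF7 (by 1.83, SE 0.111). PPP1R15A rose less than in 1xSRSF3 (-0.64, SE 0.0826), and ASNS, which fell there and did not pass here, differed by 1.16 (SE 0.0996). CTH, higher in the libraries labelled 3XSR and lower in those labelled 1xSRSF2, differed by 1.09 (SE 0.103). All 6 genes of serine and one-carbon metabolism had a lower step than in 1xSRSF7, from -0.75 for PHGDH to -0.33 for PSPH. The last was lost without 3XCTL replicate 1, 1xCtrl replicate 1 or 1xSRSF7 replicate 3 (edgeR adjusted p from 0.0538 to 0.0752).

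The smaller count moved with the settings in the step tests against the libraries labelled 1xSRSF2 and against 1xSRSF7. With total counts alone the split against the libraries labelled 1xSRSF2 was 9 higher and 2 lower, where 15% and 7.56% of all genes passed. The 5 lower genes became 10 without 1xCtrl replicate 2, where 13.9% of all genes passed as lower in place of 8.53%, and 2 or 3 without 3XCTL replicate 1, 3XSR replicate 2 or 3, 1xCtrl replicate 1 or 3 or 1xSRSF2 replicate 1 or 2. In those latter settings 6.64% to 8.84% of all genes passed as lower. Against 1xSRSF7 the 5 higher genes became 2 or 3 without 3XCTL replicate 1 or 3, any 1 library labelled 3XSR, 1xCtrl replicate 1 or 3 or 1xSRSF7 replicate 2 or 3. There 9.77% to 11.3% of all genes passed as higher, in place of 13.6%.

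Beyond the 35, 64 further genes of the same pathways were counted by list. Of 17 other ER chaperones and folding enzymes, 15 were higher in MYC-OE and none lower, with the secreted ER protein MANF at 0.66 (SE 0.0578) and the lectin chaperone CALR at 0.18 at either end of those that passed. In the other lines 8 passed as higher and 4 as lower (libraries labelled 3XSR), 6 and 0 (those labelled 1xSRSF2), 3 and 2 (1xSRSF3) and 5 and 0 (1xSRSF7). Among genes that passed, the range in the libraries labelled 3XSR ran from the disulfide isomerase P4HB (-0.44) to the oxidase ERO1B (0.81), in those labelled 1xSRSF2 from PDIA3 (0.27) to DNAJB11 (0.62), in 1xSRSF3 from MANF (-0.29) to DNAJC10 (0.36) and in 1xSRSF7 from PDIA4 (0.28) to SDF2L1 (0.71). The count in the libraries labelled 3XSR was 7 without 3XCTL replicate 1, that in those labelled 1xSRSF2 3 without 1xCtrl replicate 1, and that in 1xSRSF7 3 without 1xCtrl replicate 1 or 3 or any 1 library of the line. CALR was lost without MYC-OE replicate 2, PDIA3 without 1xCtrl replicate 1 or 1xSRSF2 replicate 2 or 3, and PDIA4 and SDF2L1 without any library but 1xCtrl replicate 2 (edgeR adjusted p from 0.0548 to 0.215). The median of this list in MYC-OE was 0.37, beside 0.00 over all tested genes, and HSPA5 itself was at 0.60.

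Of 17 other genes of ER-associated degradation and the sensors, 6 rose and 2 fell in the libraries labelled 3XSR, 6 and 2 in MYC-OE, 2 and 5 in those labelled 1xSRSF2, 5 and 1 in 1xSRSF3 and 1 and 2 in 1xSRSF7. EDEM3, which trims glycans of misfolded protein, was the lowest that passed in MYC-OE (-0.49) and in the libraries labelled 1xSRSF2 (-0.57), and SELENOS was lowest in those labelled 3XSR (-0.39) and highest in those labelled 1xSRSF2 (0.38). Of those that passed, CREB3L2 was lowest in 1xSRSF3 (-0.46) and the sensor IRE1 itself, ERN1, in 1xSRSF7 (-0.33). EDEM2 was the highest that passed in both (0.35 and 0.21, the latter lost without 1xCtrl replicate 1 or 3 or 1xSRSF7 replicate 1 or 2). Values that did not pass reached -1.15 in 1xSRSF3 and 0.31 in 1xSRSF7. The count in the libraries labelled 3XSR was 5 without 3XSR replicate 1, and that in 1xSRSF7 1 without 1xCtrl replicate 1 and 7 without 1xCtrl replicate 2. DERL3 passed as the highest in the libraries labelled 3XSR and in MYC-OE, on 5, 0 and 1 counts in 3XCTL, 34, 10 and 7 in the former and 25, 28 and 63 in the latter, and no fold is given for it. Its call in the libraries labelled 3XSR was lost without 3XCTL replicate 3 or 3XSR replicate 1 (edgeR adjusted p = 0.0691 and 0.107).

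Of 15 other regulators of eIF2, 8 were higher and 2 lower in 1xSRSF3, with EIF2S1, the subunit that is phosphorylated, at 0.47 and the protease OMA1 at -0.28. The counts were 5 and 1 in the libraries labelled 3XSR (OMA1 0.31, DELE1 -0.26), 2 and 3 in MYC-OE (EIF2S2 0.42, DELE1 -0.30), 5 and 1 in the libraries labelled 1xSRSF2 (EIF2S2 0.29, IMPACT -0.33) and 1 and 4 in 1xSRSF7 (EIF2S2 0.43, EIF2B5 -0.30). The count in the libraries labelled 3XSR was 2 without 3XCTL replicate 1 or 3XSR replicate 3, 3 without 3XCTL replicate 3 or 3XSR replicate 1, and 10 without 3XCTL replicate 2, where 19.4% of all genes passed as higher in place of 15.3%. Elsewhere it was 3 in MYC-OE without MYC-OE replicate 3, 1 and 3 in the libraries labelled 1xSRSF2 without 1xCtrl replicate 1 and 1xSRSF2 replicate 2, and 2 in 1xSRSF7 without 1xSRSF7 replicate 3. In the libraries labelled 1xSRSF2 the call of EIF2S2 was lost without 1xCtrl replicate 1 or 1xSRSF2 replicate 1 or 2, and that of IMPACT without 1xCtrl replicate 1 or 1xSRSF2 replicate 3 (edgeR adjusted p from 0.0549 to 0.0686).

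Of 15 cytosolic and mitochondrial heat shock genes, 8 rose and 1 fell in the libraries labelled 3XSR, 6 and 0 in MYC-OE and in those labelled 1xSRSF2, 7 and 0 in 1xSRSF3 and 3 and 0 in 1xSRSF7. HSPH1, a nucleotide exchange factor of HSP70, was the highest that passed in the libraries labelled 3XSR (0.86), in those labelled 1xSRSF2 (0.57) and in 1xSRSF3 (0.50). In MYC-OE it was HSPA1B (0.52, edgeR adjusted p = 0.0497) and in 1xSRSF7 HSPE1 (0.45). Values that did not pass reached 0.59 in MYC-OE and 0.79 in 1xSRSF7. The lowest that passed were the mitochondrial protease LONP1 in the libraries labelled 3XSR (-0.44), BAG3 in MYC-OE (0.19), HSPA8 in the libraries labelled 1xSRSF2 (0.28) and in 1xSRSF3 (0.29) and DNAJB1 in 1xSRSF7 (0.21). The count in the libraries labelled 3XSR was 5 without 3XCTL replicate 3 or 3XSR replicate 1, and that in 1xSRSF7 was 9 without 1xCtrl replicate 2 and 1 without 1xCtrl replicate 1 or any 1 library of the line. The calls of LONP1, HSPA1B, BAG3, HSPA8 and DNAJB1 were each lost without at least 1 library: LONP1 without any but 3XCTL replicate 2, HSPA1B without 3XCTL replicate 3 or any of MYC-OE, BAG3 without MYC-OE replicate 1 or 3, HSPA8 without 1xSRSF2 replicate 1 in that line and without 1xSRSF3 replicate 1 or 3 in the other, and DNAJB1 without any but 1xCtrl replicate 2. HSPA1B has a near-identical paralogue, so its value is uncertain. Over the whole set of 64 genes there were 27 calls up and 8 down in the libraries labelled 3XSR, 29 and 5 in MYC-OE, 19 and 6 in those labelled 1xSRSF2, 23 and 5 in 1xSRSF3 and 10 and 6 in 1xSRSF7. Set beside the 35, 1xSRSF3 gave more lower than higher genes among the 35 (7 higher, 14 lower) and the reverse among the 64, a difference that was not tested.

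**Figure D5:**
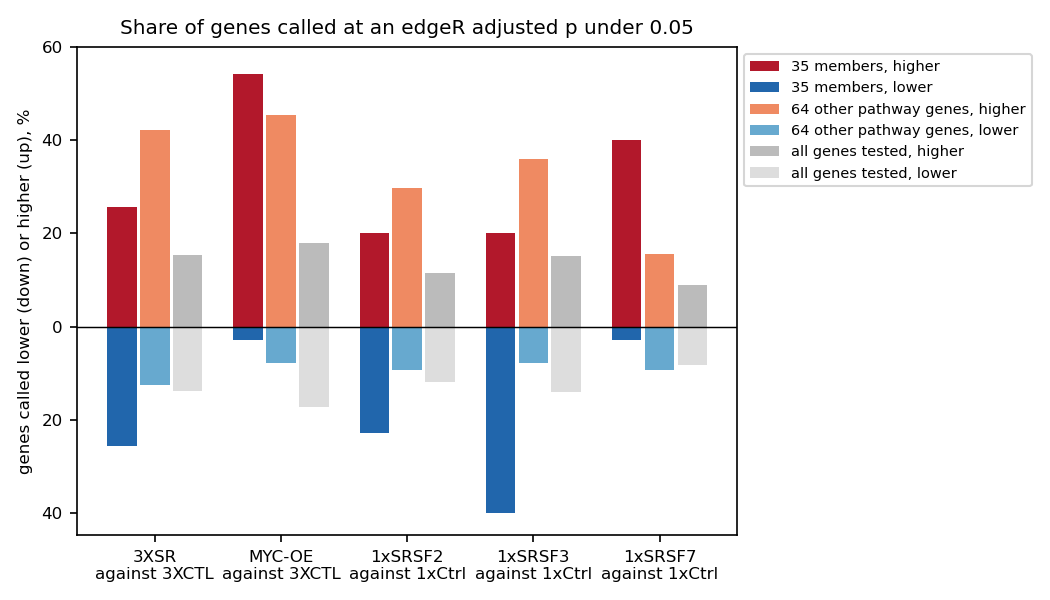
Percent of genes called higher and lower in each line against its own control, for the 35 genes, the 64 further pathway genes and all tested genes. In MYC-OE 19 of the 35 genes were called higher, where 18.0% of all genes were, and in 1xSRSF3 14 were called lower, where 14.1% of all genes were.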

How the data were processed

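RNA of 21 HCC1806 libraries (7 groups of 3) was measured by polyA-selected sequencing. Values are whole-number read counts per gene as the authors deposited them, in 2 tables of 60668 gene rows. Per the submitters' processing notes, Trimmomatic 0.39, STAR and StringTie 2.1.3b were used with GRCh38.p13; the annotation and the strand setting are not given in the sources used here.

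Genes were filtered with filterByExpr (minimum count 10, minimum total 15) and tested with edgeR 4.0.16 in R 4.3.3 (TMM scaling, robust quasi-likelihood fit), each table on its own, with Benjamini-Hochberg adjustment over all genes tested and a threshold of 0.05, two-sided. Differences between steps from own controls came from 1 fit over both tables. CPM are counts over TMM-scaled library sizes. The standard error is the size of the log2 fold change over the square root of F. Total counts of 143269192 to 303323552 make counting error small beside the spread between libraries. The tests were tested on simulated counts.

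The 35 genes and the other lists were chosen with earlier results of these data known. Genes described with full values are, in each comparison with the own control, the 6 with the largest change among those past the threshold at a mean of at least 1 CPM, and ATF4, DDIT3, HSPA5 and XBP1; further members and, in the other lists, the highest and lowest that passed complete the account. Alternatives were RLE, upper-quartile and total-count scaling, 2 other filters, DESeq2 1.42.0, limma-voom (limma 3.58.1), only the groups compared, a replicate block, a minimum log2 fold change of 1, removal of each library's trend with transcript GC content (50 bins, GENCODE 29), each library left out, and CBS summed with CBSL.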

Additional observations from a re-analysis of the deposited data

Results flagged for a closer look

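Each result here is a difference between lines that was tested as such with edgeR, and values are log2 differences. Between MYC-OE and the libraries labelled 3XSR, 22 of the 35 genes differed, where 34.9% of all genes did. Of the genes that passed in opposite directions against 3XCTL, the differences were 0.81 for JDP2, 0.71 for DDIT4, 0.69 for PHGDH, 0.51 for SHMT2 and 0.94 for ALDH1L2.

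Between 1xSRSF3 and 1xSRSF7, 29 genes differed, where 35.2% of all genes did. Those that passed in opposite directions against 1xCtrl were ATF3 (1.63), JDP2 (-1.60), NUPR1 (-1.69), DDIT4 (-1.45), PHGDH (-1.16), PSAT1 (-0.96), PSPH (-0.72), ALDH1L2 (-1.33) and ASNS (-1.35). The libraries labelled 1xSRSF2 differed from 1xSRSF3 in 24 genes, none of which passed in opposite directions, where 26.8% of all genes differed. They differed from 1xSRSF7 in 21, where 24.2% of all genes did. In the latter pair DDIT4 (-0.79), PHGDH (-0.73), ALDH1L2 (-1.17), ASNS (-0.61) and CTH (-0.77) passed in opposite directions.

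The step of the libraries labelled 3XSR from their control differed from that of the libraries labelled 1xSRSF2 in 13 genes, with CTH (1.09) passing in opposite directions, and from that of 1xSRSF3 in 19. Of all genes 21.9% and 17.8% differed in these tests. Against the step of 1xSRSF7 it differed in 18 genes, where 24.6% of all genes did. There ATF3 (1.83), JDP2 (-1.26), DDIT4 (-0.78), PHGDH (-0.75), MTHFD2 (-0.51) and ALDH1L2 (-0.63) passed in opposite directions. With the GC trend removed DDIT4 read 0.31 between MYC-OE and the libraries labelled 3XSR and -0.32 in the last contrast. Some calls against the own control behind these opposite directions were lost under alternatives other than the minimum fold change. They were JDP2 in MYC-OE, NUPR1 in 1xSRSF3 and 1xSRSF7, and ASNS and CTH in 1xSRSF7. MTHFD2 and ALDH1L2 in the libraries labelled 3XSR were lost too, as was DDIT4 in every line but 1xSRSF3. So was PHGDH in 1xSRSF7 and in those labelled 1xSRSF2. The share of all genes that passed in opposite directions was not counted. No explanation of these differences was tested.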

How the results depend on the processing

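Of the 89 calls among the 35 genes in the comparisons with the own control, 66 were kept under every alternative other than the minimum fold change, 23 were lost under at least 1 (15 by leaving out a library, 11 by removing the GC trend), and none changed sign. Of the 86 values that did not pass there, 44 passed under at least 1 alternative, 24 of them with the GC trend removed and 14 only when replicate 2 of a control was left out. Of the 146 called differences between lines, 105 were kept and 41 were lost under at least 1 alternative (28 by leaving out a library). With the GC trend removed some of the called differences changed sign. These were TRIB3 (-0.11) in MYC-OE against the libraries labelled 3XSR and CEBPB (0.015) in 1xSRSF3 against 1xSRSF7. The others were CEBPB (0.14) and TRIB3 (0.11) in the step of the libraries labelled 3XSR against that of 1xSRSF7. ATF5 in MYC-OE against the libraries labelled 3XSR was not called as first fitted (0.068, edgeR adjusted p = 0.579). It passed with the opposite sign (-0.26) once the GC trend was removed. The cause was not tested. Of 222 alternative counts of called genes, 208 were within 1.5 times the reported count. Testing against a minimum log2 fold change of 1 left 1 gene in the libraries labelled 3XSR, 0 in MYC-OE, 0 in those labelled 1xSRSF2, 0 in 1xSRSF3, 0 in 1xSRSF7, 0 in MYC-OE against the libraries labelled 3XSR, 8 in 1xSRSF3 against 1xSRSF7, 1 in 1xSRSF2 against 1xSRSF3, 0 in 1xSRSF2 against 1xSRSF7, and 1, 0 and 1 in the steps against 1xSRSF2, 1xSRSF3 and 1xSRSF7. Of all genes, 0.111% (1xSRSF7 against 1xCtrl) to 2.79% (MYC-OE against 3XCTL) passed with this minimum over the same comparisons and steps. The share was 1.56% in the libraries labelled 3XSR and 2.07% in 1xSRSF3 against 1xSRSF7. A fit of only the groups compared gave 8 in the step against 1xSRSF2, where 17.7% of all genes passed in place of 21.9%. Leaving out 1 library gave 15 to 22 genes in the libraries labelled 3XSR, 19 to 22 in MYC-OE, 13 to 20 in those labelled 1xSRSF2, 19 to 24 in 1xSRSF3, 10 to 23 in 1xSRSF7, 18 to 20, 26 to 28, 22 and 18 to 19 in the 4 direct comparisons in the order above, and 9 to 18, 16 to 20 and 13 to 21 in the steps. The share of all genes was then 20.5% to 38.5% in the libraries labelled 3XSR and 27.6% to 37.7% in MYC-OE. It was 18.9% to 30% in those labelled 1xSRSF2, 22% to 32.1% in 1xSRSF3 and 10.7% to 29.2% in 1xSRSF7. The direct comparisons gave 25.4% to 29%, 27.7% to 30.8%, 20.5% to 25.3% and 17.5% to 21.3%. The steps gave 17.4% to 29.8%, 13.8% to 23.9% and 19.4% to 33.5%. Replicate numbers did not pair the libraries: same-numbered deviations correlated at -0.107 to 0.0118 on average. A fit with a replicate block gave counts of 18, 20, 15, 20 and 15 in the comparisons with the own control, 23, 28, 21 and 17 in the direct ones and 11, 19 and 17 in the steps. Of all genes 26.5%, 33.5%, 20.3%, 26% and 13.8% passed with that block, in the same order. The direct comparisons had 32.6%, 32.1%, 23.4% and 20.8% and the steps 20.9%, 16.7% and 23.2%. The lowest count of any of the 35 was 140, in INHBE, and counting error weighs more on such genes than on the abundant ones.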
